A study of Mus musculus with 4 samples.

Results

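The genes described here are 10 members of the lipid handling programme that PPARG and the liver X receptors (LXR) govern in macrophages: the receptors Pparg and Nr1h3 and the genes Abca1, Abcg1, Mylip, Cd36, Lpl, Fabp4, Fabp5 and Plin2. They were picked by gene symbol from the 54532 genes of the deposited count table, and all 10 were found and kept after the filter on low counts. Gene expression was measured by RNA-seq in 4 cultures of peritoneal macrophages from wild type mice, 1 library per condition. The cultures were kept in normal medium (0% 4T1-CM) or with 30% 4T1-CM, culture medium taken from 4T1 mouse breast cancer cells. Under either medium, 1 culture was given the vehicle DMSO and the other 10 µM CH223191, which blocks the aryl hydrocarbon receptor (AHR). The methods describe peritoneal macrophages of BALB/c mice, bought as young adults, drawn out with thioglycollate. The sex of the animals, the number pooled and the duration of treatment are not given in the sources used here.

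PPARG (encoded by Pparg) and LXRα (encoded by Nr1h3) are nuclear receptors that bind lipids. PPARG answers to fatty acids and their oxidised derivatives, LXRα to oxysterols, and both bind DNA as partners of RXR. In macrophages PPARG is known for genes of fatty acid uptake and storage, such as Cd36, Fabp4, Lpl and Plin2, and LXR for genes that send cholesterol out of the cell or limit its entry, such as Abca1, Abcg1 and Mylip.

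PPARG and RXR bind pairs of AGGTCA letters spaced by a single base (the DR1 element), and LXR and RXR bind pairs spaced by 4 bases (DR4). The stretch of 250 bases before a transcript start was read for 6 of the 10 members, which have 9 windows between them (RefSeq, GRCm38.p6). Abcg1, Lpl, Fabp4 and Fabp5 were not among the matched genes. Shown are the windows of Abca1 and Mylip, at least 2-fold higher in 4T1-CM, and those of Plin2 and Cd36, which were lower. They are chr4:53159896-53160145 on the minus strand for Abca1, chr13:45389492-45389741 on the plus strand for Mylip, chr4:86670060-86670309 on the minus strand for Plin2 and chr5:17835897-17836146 on the minus strand for Cd36. Capitals mark the match to DR4 in Abca1 and to DR1 in Plin2 and Cd36, and Mylip has neither. The windows of Pparg and Nr1h3, genes that were also lower in 4T1-CM, hold no match to either element and are not shown.
Abca1: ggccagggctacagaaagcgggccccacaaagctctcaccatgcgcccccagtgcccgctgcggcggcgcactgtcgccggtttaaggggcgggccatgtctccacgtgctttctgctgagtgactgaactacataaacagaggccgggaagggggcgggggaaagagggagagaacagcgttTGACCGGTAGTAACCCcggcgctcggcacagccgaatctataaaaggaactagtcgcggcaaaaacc
Mylip: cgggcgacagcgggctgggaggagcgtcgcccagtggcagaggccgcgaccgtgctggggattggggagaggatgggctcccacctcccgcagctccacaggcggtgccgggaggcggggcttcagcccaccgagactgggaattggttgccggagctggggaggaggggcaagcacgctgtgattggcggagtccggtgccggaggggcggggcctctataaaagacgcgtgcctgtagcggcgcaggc
Plin2: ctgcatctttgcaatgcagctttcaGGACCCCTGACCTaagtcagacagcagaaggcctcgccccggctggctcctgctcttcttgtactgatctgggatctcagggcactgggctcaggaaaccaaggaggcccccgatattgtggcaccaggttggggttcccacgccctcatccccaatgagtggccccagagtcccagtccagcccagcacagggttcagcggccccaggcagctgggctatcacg
Cd36: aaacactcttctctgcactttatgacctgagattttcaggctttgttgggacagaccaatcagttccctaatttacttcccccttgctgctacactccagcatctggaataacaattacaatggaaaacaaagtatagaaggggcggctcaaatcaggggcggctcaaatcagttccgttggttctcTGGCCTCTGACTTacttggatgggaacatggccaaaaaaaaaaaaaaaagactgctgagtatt

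Both strands were searched. AGGTCANAGGTCA with up to 2 mismatches was matched in Plin2, where the match begins at position -225 from the transcript start, and in Cd36, where it begins at position -63, while 3.24% of 32851 windows of the same length hold such a match. The 50 bases after the Cd36 start lie in no GENCODE transcript of that gene. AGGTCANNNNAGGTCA with up to 2 mismatches was matched in 2.57% of all windows and in none of the members. With 3 mismatches, a limit chosen after the data were seen, it was matched at position -67 of Abca1 and in 18.5% of all windows. The AHR core GCGTG was found in Plin2, Mylip and a window of Pparg, beside 28.2% of all windows. TATAAA, present in 12.4% of all windows, lies at position -29 of Abca1, -32 of Mylip and, on the minus strand, -29 of a Pparg window. These matches describe the letters of the windows and are no measure of binding.

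The 4 libraries held 15535405 to 17557127 reads, and 17395 to 18665 genes had a read. Levels are given as CPM, counts scaled to library size with TMM factors of 0.986 to 1.03. Only genes reaching 10 reads in some library were compared, 13715 in all. All 10 macrophage markers examined passed this filter, and their summed level was 14474 CPM in normal medium with DMSO, 18642 with CH223191, and 40752 and 43543 in 4T1-CM with DMSO and CH223191. Most of this sum was Lyz2, with 189512 to 577870 reads, and Mrc1 went the other way (log2 ratios -0.78 and -0.62). Of 8 adipocyte markers, a cell type that also uses Pparg, Fabp4, Lpl and Cd36, 6 including Adipoq and Plin1 were at 0 and none had over 3 reads, a count that corresponds to 0.171 to 0.189 CPM. The sum of 8 endothelial markers was 112 and 81.2 CPM in normal medium and 46.7 and 40.4 CPM in 4T1-CM, mostly Vwf, with Tek and Cldn5 at 0. Of the 6 compared, 3 with at most 60 reads (Pecam1, Cdh5 and Egfl7) were at least 2-fold higher in 4T1-CM in both comparisons and Vwf was lower. Pecam1 and Egfl7 passed the filter only through 4T1-CM libraries, which favours their being counted as higher there. Sums of fibroblast markers (63.0, 30.1, 149 and 127 CPM) and neutrophil markers (67.6, 74.6, 242 and 181 CPM, with Ly6g, S100a9 and Retnlg at 0) were higher in 4T1-CM. Of the 4 neutrophil markers compared, Mmp8 (35, 21, 2142 and 759 reads), Csf3r and S100a8 were higher, and Cxcr2 (12, 9, 2 and 0 reads) was lower. The sum of B cell markers (20.2, 34.3, 7.94 and 5.29 CPM) was lower. It was mostly Ighm (317, 540, 128 and 67 reads), the only B cell marker to pass the filter. Mesothelial and epithelial markers summed to at most 1.35 CPM. The part of these cells in the values below was not tested, and in bulk samples fewer cells of a type and less RNA per cell cannot be told apart.

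To see how medium from 4T1 cells alters the programme, each 4T1-CM library was set beside the normal medium library with the same agent. With 1 library per condition there is no spread between replicates and no test of these pairs. The 95% intervals are exact Clopper-Pearson intervals of the split of reads, cover counting error only and compare libraries, not conditions. Both receptors and most genes of uptake and storage were lower in 4T1-CM, while Abca1 and Mylip were higher and Abcg1 stayed within 1.23-fold. With DMSO, 2 of 10 members were at least 2-fold higher, against 12.2% of all genes, and 4 were at least 2-fold lower, against 6.11%. With CH223191, 2 were higher, against 12% of all genes, and 6 were lower, against 7.86%. In both comparisons, which share no library, Abca1 and Mylip were higher (8.18% of all genes) and Pparg, Plin2, Lpl and Fabp4 were lower (3.38%). The median log2 ratio of the members was -0.86 with DMSO and -1.18 with CH223191, and that of all genes was 0.01 and 0.02. Together the 10 genes took 1.24% (DMSO) and 1.43% (CH223191) of all reads in normal medium, and 0.826% and 0.906% in 4T1-CM.

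**Figure D1:**
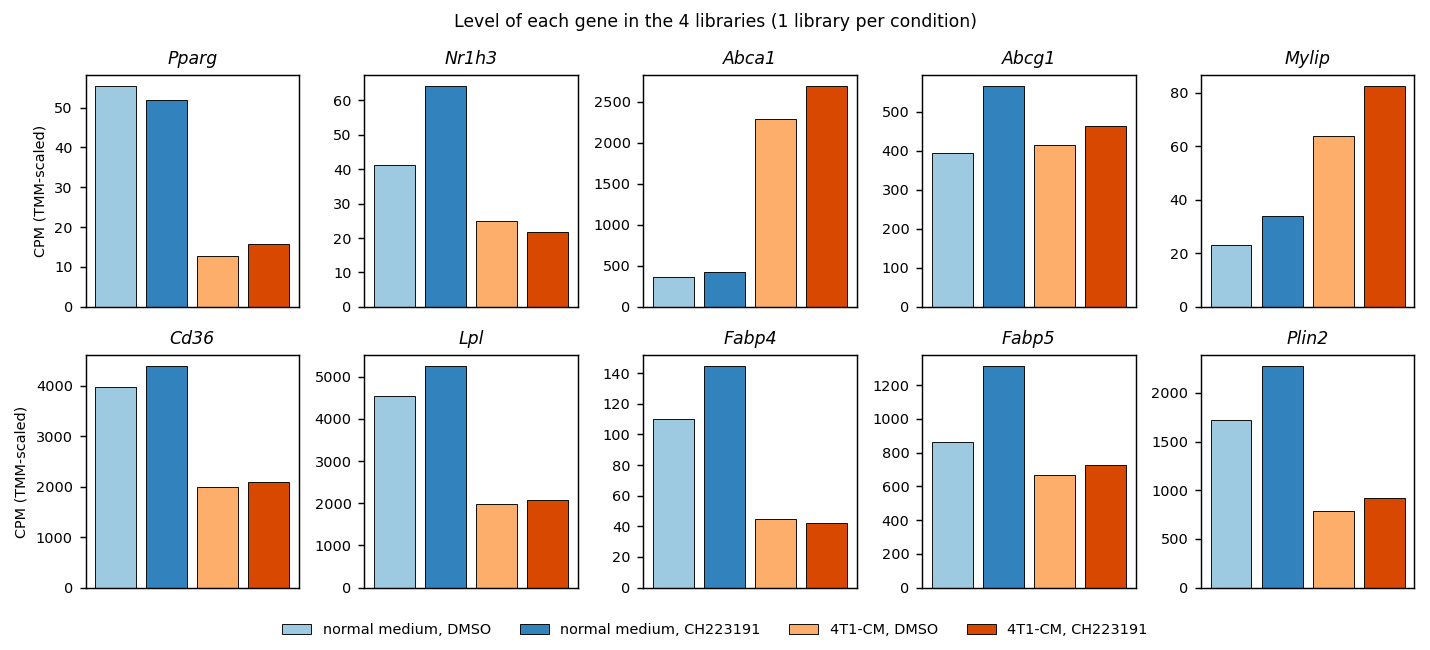
Level of each of the 10 genes in the 4 libraries, in TMM-scaled CPM on axes that start at 0, with 1 bar per library and no error bar because each condition has 1 library. Pparg, Nr1h3, Cd36, Lpl, Fabp4, Fabp5 and Plin2 have both of their lowest bars in 4T1-CM, and Abca1 and Mylip both of their highest.

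Pparg, on chromosome 6 from 115360951 to 115490399 (GRCm38, as for all genes here), had 885 reads (55.5 CPM) in normal medium with DMSO, 824 (51.8 CPM) in normal medium with CH223191, 221 (12.6 CPM) in 4T1-CM with DMSO and 257 (15.8 CPM) in 4T1-CM with CH223191. Both 4T1-CM libraries were below both libraries in normal medium. The level was 4.39-fold lower in 4T1-CM with DMSO (log2 ratio -2.13, 95% interval -2.36 to -1.92) and 3.27-fold lower with CH223191 (-1.71, -1.92 to -1.51). This was the lowest ratio of the 10 genes with DMSO, and with CH223191 only the ratio of Fabp4 was lower.

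Nr1h3, on chromosome 2 from 91184061 to 91202834, had 657 reads (41.2 CPM) and 1023 reads (64.3 CPM) in normal medium with DMSO and CH223191. In 4T1-CM it had 438 reads (25 CPM) and 355 reads (21.9 CPM). It was thus highest in normal medium with CH223191, and the 2 libraries in 4T1-CM were both lower. The ratio was 1.65-fold lower with DMSO (log2 -0.72, 95% interval -0.90 to -0.54) and 2.94-fold lower with CH223191 (-1.56, -1.74 to -1.38).

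The partners of these receptors differed less between the media. None of the 12 compared genes among 15 other lipid receptors, RXRs and cofactors was at least 2-fold higher or lower in either comparison, and their median log2 ratio was 0.11 with DMSO and 0.10 with CH223191. Of these, Rxra, Nr1h2 and Ppard were singled out after their values were seen. Rxra, the shared partner, had log2 ratios of 0.17 and 0.12, and Nr1h2, which encodes LXRβ, had 0.12 and 0.01. Ppard, which encodes PPARδ, was higher in 4T1-CM (0.64 and 0.69). Ppara had at most 1 read in any library.

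**Figure D2:**
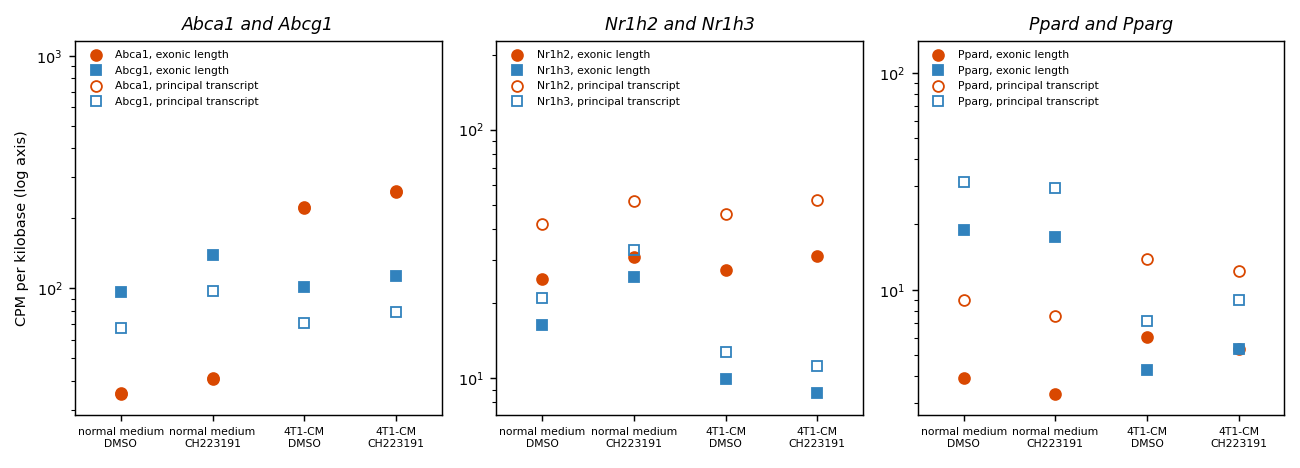
Levels of 3 pairs of genes in the 4 libraries, in CPM per kilobase on log axes, by the exonic length of the deposited table (filled) and by the length of the principal transcript (open). Abca1 passes Abcg1 in 4T1-CM, Nr1h2 is above Nr1h3 in all 4 libraries, and Ppard is below Pparg in normal medium.

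Compared per kilobase of exonic length, Nr1h2 was 1.52 times the level of Nr1h3 in normal medium with DMSO, 1.21 times with CH223191, and 2.73 and 3.57 times in 4T1-CM. Nr1h2 was the more abundant LXR in all 4 libraries. Ppard was at 0.208 and 0.188 of the level of Pparg in normal medium and at 1.42 in 4T1-CM with DMSO. In 4T1-CM with CH223191 the ratio was 0.992 by exonic length and 1.36 by the length of the principal transcript, so the order there depends on the length used.

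Abca1 moves cholesterol and phospholipid out of the cell onto apolipoprotein A-I and is a textbook LXR target. The gene lies on chromosome 4 from 53030787 to 53159895 and has 50 exons. The DR4-like letters shown above, before its start, have 3 mismatches, as do matches in 18.5% of all windows. It had 5825 reads (365 CPM) and 6707 reads (422 CPM) in normal medium with DMSO and CH223191, and 40102 reads (2291 CPM) and 43783 reads (2695 CPM) in 4T1-CM. Both 4T1-CM libraries were far above both others. The ratio was 6.27-fold with DMSO (log2 2.65, 95% interval 2.61 to 2.69) and 6.39-fold with CH223191 (2.68, 2.64 to 2.71).

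Abcg1 (chromosome 17, 31057698 to 31115777), which passes cholesterol to high density lipoprotein and is likewise an LXR target, differed far less between the media. It had 6285 reads (394 CPM) and 9008 reads (566 CPM) in normal medium with DMSO and CH223191, and 7253 reads (414 CPM) and 7506 reads (462 CPM) in 4T1-CM. The highest library was normal medium with CH223191, and the others lay between 394 and 462 CPM. The log2 ratio to normal medium with DMSO was 0.07 (95% interval 0.02 to 0.12), and with CH223191 it was -0.29 (-0.34 to -0.25). Per kilobase of exonic length, Abca1 was at 0.364 and 0.292 of the level of Abcg1 in normal medium and at 2.17 and 2.29 times that level in 4T1-CM. The order of the pair was the same with the length of the principal transcript (0.527, 0.423, 3.14 and 3.31).

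Mylip encodes IDOL, a ubiquitin ligase induced by LXR that limits cholesterol uptake. It lies on chromosome 13 from 45389742 to 45412022. It had 371 reads (23.3 CPM) and 539 reads (33.9 CPM) in normal medium with DMSO and CH223191, and 1115 reads (63.7 CPM) and 1344 reads (82.7 CPM) in 4T1-CM, again with both 4T1-CM libraries above both others. The ratio was 2.73-fold with DMSO (log2 1.45, 95% interval 1.28 to 1.63) and 2.44-fold with CH223191 (1.29, 1.14 to 1.43).

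**Figure D3:**
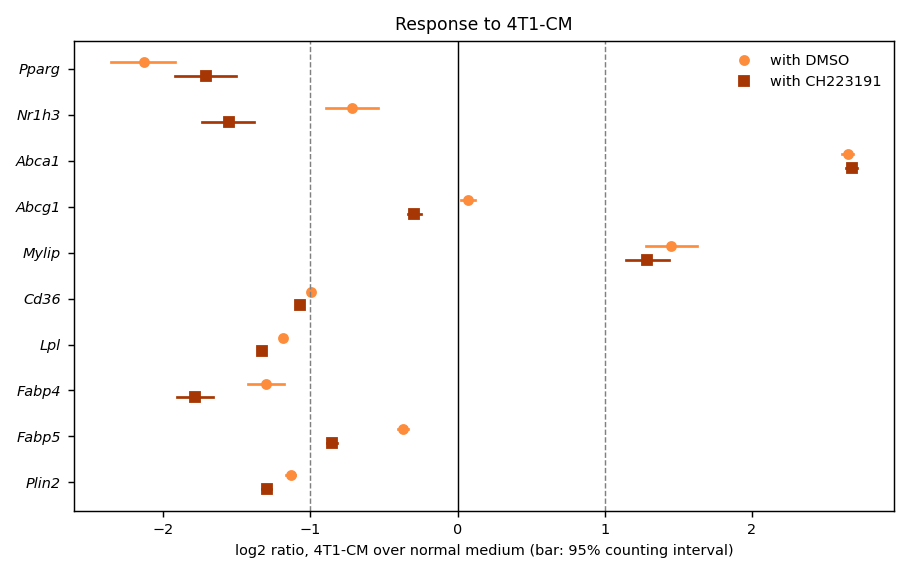
Log2 ratio of each gene between 4T1-CM and normal medium, with DMSO (circles) and with CH223191 (squares). Bars are 95% counting intervals and dashed lines mark 2-fold. Abca1 and Mylip lie right of the 2-fold line, Abcg1 lies near 0 and Pparg, Fabp4, Lpl and Plin2 lie left of the line in both comparisons.

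Cd36 and Lpl, which act in fatty acid uptake, were lower in 4T1-CM. Cd36 (chromosome 5, 17781690 to 17888801), the fatty acid translocase and a scavenger receptor for oxidised LDL, had 63262 reads (3968 CPM) and 69640 reads (4379 CPM) in normal medium with DMSO and CH223191, and 34849 reads (1991 CPM) and 33907 reads (2087 CPM) in 4T1-CM. It was 1.99-fold lower with DMSO (log2 -0.995, 95% interval -1.01 to -0.98), just short of 2-fold, and 2.10-fold lower with CH223191 (-1.07, -1.09 to -1.05). Scaling by total counts put the ratio with DMSO at -1.04, past 2-fold.

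Lpl (chromosome 8, 68880491 to 68907448), the lipase that frees fatty acids from triglyceride-rich lipoproteins, had 72405 reads (4542 CPM) and 83364 reads (5242 CPM) in normal medium with DMSO and CH223191. In 4T1-CM it had 34883 reads (1993 CPM) and 33842 reads (2083 CPM). The 4T1-CM libraries were again both lower, by 2.28-fold with DMSO (log2 -1.19, 95% interval -1.21 to -1.17) and by 2.52-fold with CH223191 (-1.33, -1.35 to -1.31). Of the 10 genes, Cd36 and Lpl had the most reads in normal medium.

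Fabp4 and Fabp5 encode fatty acid binding proteins that carry fatty acids within the cell, and both lie on chromosome 3, Fabp5 from 10012548 to 10016607 and Fabp4 from 10204088 to 10208576. Fabp4 had 1757 reads (110 CPM) and 2296 reads (144 CPM) in normal medium with DMSO and CH223191, and 783 reads (44.7 CPM) and 681 reads (41.9 CPM) in 4T1-CM. It was 2.46-fold lower with DMSO (log2 -1.30, 95% interval -1.42 to -1.18) and 3.44-fold lower with CH223191 (-1.78, -1.91 to -1.66). Fabp5 differed less between the media. It had 13798 reads (866 CPM) and 20843 reads (1311 CPM) in normal medium with DMSO and CH223191, and 11702 reads (668 CPM) and 11764 reads (724 CPM) in 4T1-CM. Its log2 ratio with DMSO was -0.37 (95% interval -0.41 to -0.34) and its ratio with CH223191 -0.86 (-0.89 to -0.82), short of 2-fold in both. Per kilobase of exonic length Fabp5 was 9.88 and 11.4 times the level of Fabp4 in normal medium and 18.8 and 21.7 times that level in 4T1-CM. Of the 50-base words in Fabp5, 5.48% also occur in other genes such as Fabp5l2, the highest share among the 10 genes, and how such reads were counted is not given in the sources used here.

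Plin2 (chromosome 4, 86648386 to 86670060) coats lipid droplets and is the main perilipin of macrophages. It had 27405 reads (1719 CPM) and 36146 reads (2273 CPM) in normal medium with DMSO and CH223191, and 13716 reads (784 CPM) and 15011 reads (924 CPM) in 4T1-CM. Both 4T1-CM libraries were lower, by 2.19-fold with DMSO (log2 -1.13, 95% interval -1.16 to -1.10) and by 2.46-fold with CH223191 (-1.30, -1.33 to -1.27).

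Ordered per kilobase of exonic length, Cd36 was the highest of the 10 genes in each library, at 1105, 1220, 555 and 581 CPM per kilobase in the order normal medium with DMSO and CH223191, then 4T1-CM with DMSO and CH223191. With the length of the principal transcript, Fabp5 was higher than Cd36 in 3 of the 4 libraries, so the top of the order depends on the length. The lowest gene was Mylip in normal medium and Pparg in 4T1-CM with either length.

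An additive quasi-likelihood fit of edgeR over the 4 libraries, with medium and inhibitor as terms, has 1 residual degree of freedom and counts any difference between the responses as spread. Its medium term passed an adjusted p of 0.05 for 32.6% of all genes and for 9 of the 10 members. The adjusted p was 9.52e-08 for Abca1, 6.32e-06 for Pparg and 0.00714 for Fabp5, the highest among the 9. Abcg1 did not pass (adjusted p 0.562), with a coefficient of -0.11 on the log2 scale.

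The inhibitor comparisons set each CH223191 library beside the DMSO library in the same medium. How far AHR was active or blocked in these cultures was not tested here. No member was at least 2-fold higher or lower with CH223191 than with DMSO in normal medium, where 8.15% of all genes were. The same held in 4T1-CM, where 5.41% of all genes were. These shares rest largely on genes with few reads. Of the 11765 genes with 10 reads in every library, as all 10 members have, 315 passed 2-fold in normal medium and 136 in 4T1-CM. Of the 10 log2 ratios in normal medium, 9 were above 0, with a median of 0.40 against 0.00 for all genes. In 4T1-CM 8 of 10 were above 0, with a median of 0.14 against 0.00. In the additive fit of edgeR, the inhibitor term passed an adjusted p of 0.05 for 0.0802% of all genes and for 0 of the 10 members. At an unadjusted p of 0.05 it passed for 6.42% of all genes and for 4 of the members, Abcg1, Plin2, Fabp5 and Mylip, and the lowest adjusted p was that of Mylip, 0.591.

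The largest ratios with CH223191 were in normal medium. Nr1h3 was higher there by 0.64 on the log2 scale (95% interval 0.50 to 0.79), Fabp5 by 0.60 (0.57 to 0.63), Mylip by 0.54 (0.35 to 0.74) and Abcg1 by 0.52 (0.48 to 0.57). Plin2 and Fabp4 had log2 ratios of 0.40 and 0.39, Abca1 and Lpl both 0.21, and Cd36 0.14. The interval of Pparg included 0 (-0.10, -0.24 to 0.04), so its 2 libraries in normal medium were not distinguishable at this depth.

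In 4T1-CM the ratios were nearer to 0 for 8 of the 10 genes, all but Pparg and Abca1. Mylip was higher with CH223191 by 0.38 on the log2 scale (95% interval 0.26 to 0.49), Pparg by 0.32 (0.06 to 0.59), Plin2 by 0.24 and Abca1 by 0.23. Abcg1 (0.16), Fabp5 (0.12), Cd36 (0.07) and Lpl (0.06) differed by less. The intervals of Nr1h3 (-0.20, -0.40 to 0.01) and Fabp4 (-0.09, -0.24 to 0.06) included 0.

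**Figure D4:**
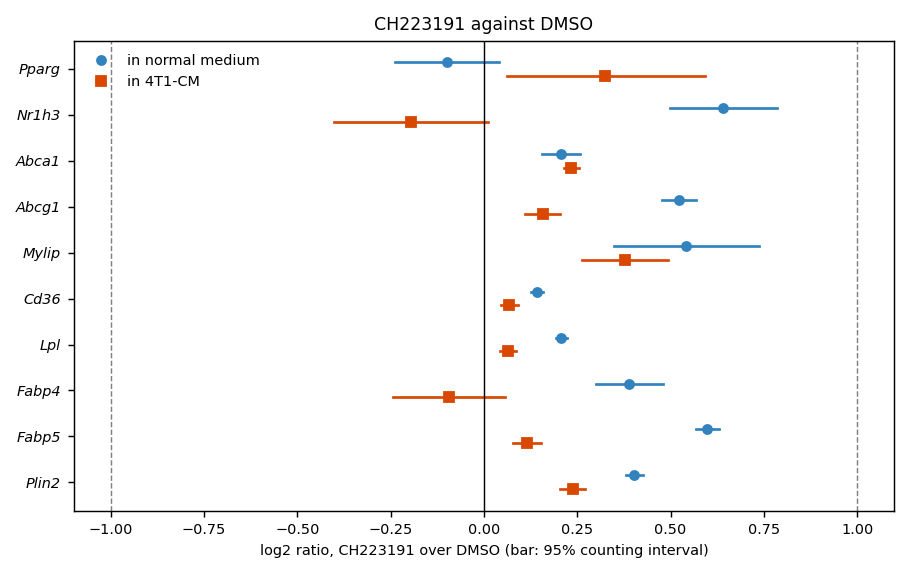
Log2 ratio of each gene between CH223191 and DMSO, in normal medium (circles) and in 4T1-CM (squares), with 95% counting intervals and dashed lines at 2-fold. No gene reaches the dashed lines, and the points of Nr1h3, Fabp5, Fabp4 and Abcg1 lie farther right in normal medium than in 4T1-CM.

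Since CH223191 and DMSO were each given in both media, the response to 4T1-CM with CH223191 can be set against that with DMSO. The difference, the log2 ratio with CH223191 minus that with DMSO, has a counting interval but no test. It was -0.84 for Nr1h3 (95% interval -1.08 to -0.59), the largest of the 10 and the only one of at least 0.5 in size. Among the 7134 genes that had 200 or more reads per library, 9.25% had a difference of at least 0.5 and 1.88% one at least as large as that of Nr1h3. Fabp4 and Fabp5 each had a difference of -0.48 (-0.66 to -0.31 and -0.53 to -0.43), a size that 10.3% of these genes reached. Pparg had 0.42 (0.13 to 0.72), a size that 14.7% reached, and Abcg1 had -0.37 (-0.43 to -0.30), a size that 20.0% reached. Abca1, which was over 6-fold higher with either agent, had a difference of 0.03 (-0.03 to 0.08), so a change of its response by CH223191 was not detectable at this depth. Mylip had -0.16 (-0.39 to 0.06), an interval that also includes 0. Plin2, Lpl and Cd36 had -0.16, -0.14 and -0.07, below the median size of 0.19 over the same genes.

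The neighbouring pathway genes were read from lists, whose counts stand beside the 8.18% of all genes at least 2-fold higher in 4T1-CM in both comparisons and the 3.38% lower. Of 13 other LXR targets, 10 were compared, and 1, Arl4c, a share near that of all genes, was at least 2-fold higher in 4T1-CM in both comparisons and none was lower, with medians of 0.70 with DMSO and 0.35 with CH223191. Arl4c, a small GTPase induced by LXR, had 441 and 353 reads in normal medium with DMSO and CH223191, against 2694 and 2433 reads in 4T1-CM (log2 ratios 2.47 and 2.75). Taken separately, 3 of this list were at least 2-fold higher with DMSO, against 12.2% of all genes, and 1 with CH223191, against 12%. Named after its values were seen, Apoe, the apolipoprotein that accepts cholesterol, was lower in 4T1-CM (log2 -0.75 and -0.73). It was the only compared gene of the list that was lower with DMSO. Pltp, a phospholipid transfer protein (0.78 and 0.72), and Scd2, a desaturase (1.13 and 0.92), were higher. With CH223191, Lpcat3, Fasn and Acaca, likewise named after their values were seen, were also lower (-0.12, -0.21 and -0.08).

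Of 13 other PPARG targets, 10 were compared, with 1 at least 2-fold higher in both comparisons and 1 lower, again near the shares of all genes, and medians of -0.33 and -0.70. The lower one was Mgll, the monoacylglycerol lipase, with 2148 and 2529 reads in normal medium against 357 and 386 in 4T1-CM (log2 ratios -2.72 and -2.74). The higher one was Olr1, the receptor LOX-1 for oxidised LDL, with 10 and 11 reads in normal medium against 1708 and 1567 in 4T1-CM (7.21 and 7.06).

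Among 8 lipoprotein uptake receptors, all compared, 4 were at least 2-fold higher in both comparisons, against 8.18% of all genes, and none was lower. The most abundant by reads, Lrp1, named after its values were seen, had log2 ratios of -0.51 and -0.42, the direction of Cd36. Beside Olr1 the higher ones include Cxcl16, which is also a scavenger receptor for oxidised LDL (270 and 241 reads in normal medium, then 7287 and 7346 in 4T1-CM), and Lrp8, a receptor for apolipoprotein E (77, 80, 483 and 345 reads in the same order). The fourth, Vldlr, had at most 32 reads and passed the filter on low counts only through 4T1-CM, which favours its being counted as higher. Cd36 was thus lower in the libraries in which Olr1 and Cxcl16, 2 other receptors for oxidised LDL, were at least 2-fold higher. Msr1, another gene of this list named after its values were seen, was also higher (log2 1.09 with DMSO and 0.76 with CH223191).

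Of 12 lipid droplet and cholesterol ester genes compared, Hilpda, which holds back lipolysis at the droplet, was at least 2-fold higher in both comparisons (log2 1.80 and 1.38) and Mgll lower, and the medians were -0.37 and -0.35. Plin2 and Hilpda, both droplet proteins, therefore had opposite directions. Among 9 compared genes that bind, carry or activate fatty acids, Acsl1, an acyl-CoA synthetase, was higher in both (2.02 and 1.73), opposite to Fabp4, and the medians were 0.27 and 0.14. Among 9 compared enzymes that make ligands of LXR or PPARG, 4 were at least 2-fold higher in both, against 8.18% of all genes, and 1 was lower, against 3.38%. Of the higher ones, Ch25h had at most 1 read in normal medium and 19 and 18 reads in 4T1-CM. It passed the filter on low counts only through 4T1-CM, which favours its being counted as higher. Hpgds, the synthase of prostaglandin D2, from which PPARG ligands derive, was the lower one (log2 -1.70 and -1.64), and Ptgs1, a cyclooxygenase, was higher (1.06 and 1.21). Of 8 lysosomal genes, Lipa, the acid lipase that frees cholesterol and fatty acids from lipoproteins taken up, was lower in both (-1.36 and -1.69). In none of the lists was a gene at least 2-fold higher, or lower, with CH223191 in both media. How many of all genes were was not counted, so this absence is no result about the lists.

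**Figure D5:**
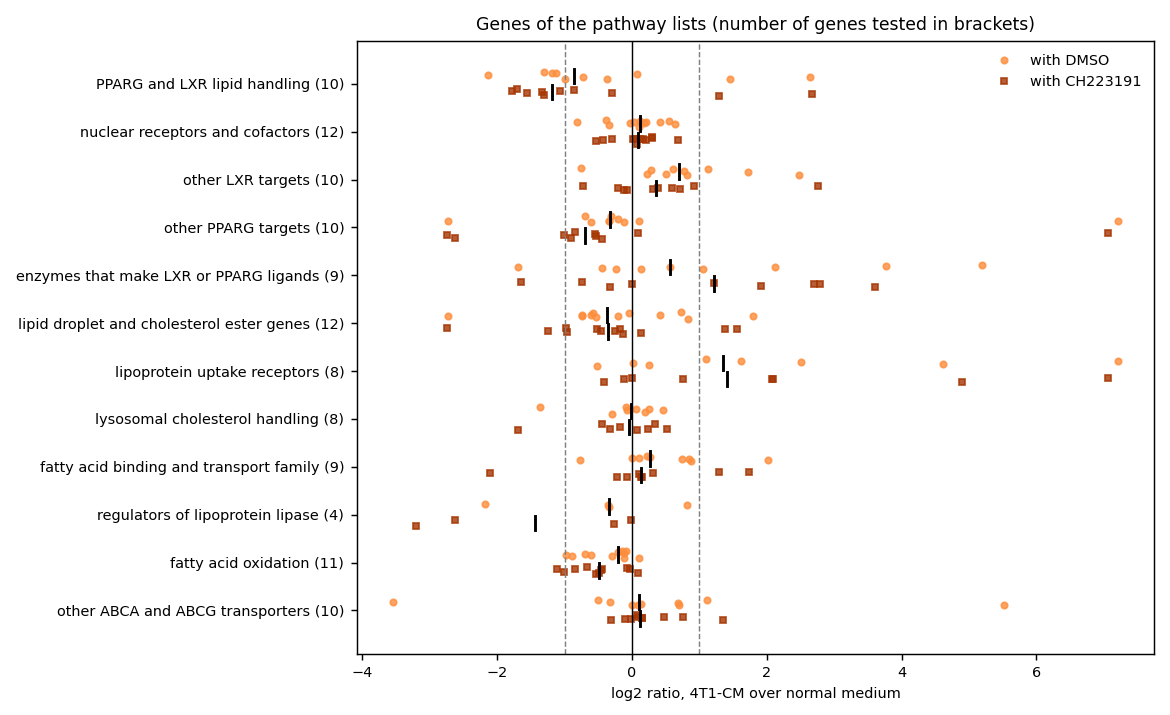
Log2 ratio between 4T1-CM and normal medium for each compared gene of the 10 members and of the 11 pathway lists, with DMSO (circles) and CH223191 (squares). The short bars are medians and the dashed lines mark 2-fold. The members spread from -2.13 to 2.65 with DMSO, and the receptors and cofactors lie within 2-fold of 0.

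The genes nearest to each receptor were found among the 8323 whose mean was 10 CPM or more, by the Euclidean distance between centred log2 CPM over the 4 libraries. Those nearest to Pparg were H2afj (distance 0.17; 1027, 939, 233 and 320 reads), Ak8 (0.18) and Rgs18 (0.20). Only 38 genes lay within 0.5 of Pparg. Those nearest to Nr1h3 were Tyrobp (0.14; 10225, 17646, 6714 and 5919 reads), Ccs (0.16) and Rplp1 (0.19), and 288 genes lay within 0.5. With 4 points, each a single library, such likeness is a description of these libraries.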

How the data were processed

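Per the labels, total RNA was taken with TRIzol and libraries were made with the NEBNext Ultra RNA kit. The authors deposited whole-number counts of reads per gene, without normalization, and their processing notes name HISAT2 2.0.5 and DESeq2. The counter, its strand setting and the build are not given in the sources used here for these libraries. Coordinates of 53462 of 54409 shared genes were those of GENCODE M21 (GRCm38). All 4 count columns were matched to a sample, with RPMI in a column name read as normal medium and TCM as 4T1-CM.

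From the counts, TMM factors (edgeR 4.0.16, R 4.3.3) were taken over genes reaching 10 reads in some library, and log2 ratios were taken with a prior count of 0.5 (Python 3.11.15, numpy 2.4.6, pandas 2.3.3, scipy 1.17.1, matplotlib 3.10.9). The library totals set the precision of each interval. Alternatives were DESeq2 1.42.0 size factors, total counts, other filters, protein-coding genes alone, a prior count of 5, an additive edgeR fit and, added after the data were seen, principal transcript lengths and 3 mismatches. The procedure was tested on simulated data.

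The members and lists were chosen with earlier results of these data known. Beyond the members, the rule names up to 4 genes per list at least 2-fold higher or lower the same way in both comparisons with a mean of at least 10 CPM, and the 3 genes nearest to each receptor. Symbols listed again (103) were named by identifier. A gene of the lists is not reported here.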

Additional observations from a re-analysis of the deposited data

Results flagged for a closer look

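For 4 of the 10 genes a ratio had opposite signs in the 2 arms of the design: the ratio of 4T1-CM to normal medium for Abcg1, and the ratio of CH223191 to DMSO for Nr1h3, Fabp4 and Pparg. The share of all genes with such opposite signs was not counted, so this number has no background to be set against. With 1 library per condition the differences, given as the log2 response to 4T1-CM under CH223191 minus that under DMSO, were not tested. The difference of Nr1h3 was of a size that 1.88% of the genes with 200 or more reads per library reached, and those of the other 3 of sizes that 10.3% to 20.0% reached.

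Abcg1 was higher in 4T1-CM than in normal medium with DMSO and lower with CH223191, a difference of -0.37 on the log2 scale. CH223191 went with more Nr1h3 in normal medium and less in 4T1-CM, a difference of -0.84. Fabp4 did the same, with a difference of -0.48. Pparg was lower with CH223191 in normal medium and higher in 4T1-CM, a difference of 0.42. For Pparg in normal medium and for Nr1h3 and Fabp4 in 4T1-CM, the counting interval of the CH223191 ratio includes 0.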

How the results depend on the processing

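No paired analysis was possible because the labels give no replicate numbers and each condition has 1 library, though the additive fit holds the agent as a term. Over 6 alternatives of scaling, filter, prior count and gene type, no log2 ratio or difference of the 10 genes changed sign, and the largest shift was 0.06 (Lpl, CH223191 in normal medium). With total counts and with no filter, Cd36 joined the genes at least 2-fold lower with DMSO, making 5 in place of 4. Abcg1 turned from 0.07 to -0.11 under the additive fit (adjusted p 0.562 in edgeR's quasi-likelihood test), which by construction averages both agents. By the length of the principal transcript the ratio of Ppard to Pparg in 4T1-CM with CH223191 was 1.36 in place of 0.992.

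Counts over all genes followed the filter. With DMSO, 1673 genes were higher and 838 lower in 4T1-CM, against 4635 and 2535 with no filter and 851 and 499 when every library had to reach 10 reads. Under CH223191, 1648 and 1078 became 4367 and 2995, or 869 and 677. In both, 1122 and 463 became 2033 and 886, or 586 and 305. With CH223191 against DMSO, 1118 genes in normal medium and 742 in 4T1-CM passed 2-fold, against 5075 and 5243 with no filter, 315 and 136 with 10 reads in every library, 570 and 321 with a prior count of 5 and 622 and 366 among protein-coding genes. All 10 genes have at least 221 reads in every library, and counting error limits the smaller ratios, such as that of Pparg under CH223191. The spread between cultures is unknown.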

Other observations

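Genes of fatty acid oxidation, which PPARs also govern, moved little. Of 11 compared, none was at least 2-fold higher or lower in 4T1-CM in both comparisons, the medians were -0.21 with DMSO and -0.49 with CH223191, and Hadhb, chosen after its values were seen, had -0.98 and -1.11. Of 10 other ABCA and ABCG transporters compared, 1 (Abcg4, with 0, 7, 24 and 19 reads) was at least 2-fold higher in both comparisons, beside medians of 0.11 and 0.12. Abcg4 passed the filter on low counts only through 4T1-CM, which favours its being counted as higher. The ratio of Abca1 was above those of all these transporters but Abcg4 with DMSO.

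Angptl4, an inhibitor of LPL and a PPAR target, was named after its values were seen. In normal medium it had 22 reads with DMSO and 111 with CH223191, and in 4T1-CM 19 and 18. Its log2 ratio with CH223191 was 2.31 in normal medium (95% interval 1.67 to 3.07, counting error only) and 0.03 in 4T1-CM (-0.98 to 1.04). Scd1, the LXR target that desaturates fatty acids, likewise named after its values were seen, had log2 ratios with CH223191 of 1.03 (normal medium) and -0.10 (4T1-CM).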
